A study of Mus musculus with 4 samples.

Results

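RNA of a fibroblast culture carrying Minimal Myc was set against RNA of a fibroblast culture carrying an empty vector, gene by gene, with 1 sequencing library on each side. The genes compared were those averaging at least 1 FPKM over the series' 4 libraries, which left 11950 of 23366 genes. FPKM, the deposited unit, counts sequenced fragments relative to the length of the transcript and the size of the library. A difference is that of log2(FPKM + 1), Minimal Myc minus vector, so that 1 stands for 2-fold, and it understates the change of genes with low values. With 1 library per culture there is no replicate check, and sizes are given without p-values.

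All 4 cultures were immortalized mouse embryonic fibroblasts, connective tissue cells grown from mouse embryos. They carried Minimal Myc, Myc, MycN or the empty vector, and all 4 received an adenovirus that delivers Cre recombinase, an enzyme that removes DNA lying between its target sites. RNA was harvested after a recovery stated as 48 without a unit. The design describes the vector cells as cells with Myc deleted. The labels give neither the makeup of Minimal Myc nor the promoter that drives it, and they do not say whether each culture came from 1 clone.

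Myc proteins are transcription factors that pair with Max and bind the E-box sequence, and they are best known for driving ribosome assembly, nucleotide synthesis and cell division. In fibroblasts the interferon system is a separate alarm circuit. Sensors of viral nucleic acid switch on type I interferon genes, the secreted interferon binds its receptor, and a complex of Stat proteins with Irf9 then switches on many defence genes through a promoter element called the ISRE.

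Low FPKM values fell on steps of single fragments, from which the depth was estimated, to the nearest 100000, at 88800000 fragments for Minimal Myc, 68300000 for Myc, 93500000 for MycN and 67400000 for vector. In each library 23.8% to 26.5% of the low values used lay at 1, 2 or 3 fragments by this estimate. The median difference over all genes was 0.47, or 1.38-fold, and it stood at 0.19 for genes averaging 1 to 5 FPKM and at 0.71 for genes of 100 FPKM or more. Because this median sits above 0, many counts are also given after centring, that is after subtracting this median. Counts given without a centred value include this shift. At least 2-fold higher in Minimal Myc were 1642 genes (13.7% of those tested) and at least 2-fold lower were 301 (2.52%). After centring these became 480 higher (4.02%) and 658 lower (5.51%). Of the 12 fibroblast markers, 11 were measured, with summed levels of 3654 FPKM in Minimal Myc, 3795 in Myc, 2757 in MycN and 3013 in vector, so both libraries carry the marker RNAs of the labelled cell type.

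The transgene readout came first as a check of the labels. Mycn, the gene of N-Myc, stood at 95.9 FPKM in Minimal Myc, 0.275 in Myc, 178 in MycN and 0.390 in vector. Myc itself stood at 32.6 FPKM in Minimal Myc, 141 in Myc, 4.36 in MycN and 22.2 in vector. The Minimal Myc library was thus far above vector at Mycn and close to vector at Myc, while the Myc library was high only at Myc. The vector library, labelled as Myc-deleted, thus read more Myc than the MycN library did, and its level alone does not show a deletion. Neither the parent gene of Minimal Myc nor the Myc exons that Cre removes are given, and these values do not settle either point. None of the 11 other measured members of the Myc and Max network reached a 2-fold difference on the log2(FPKM + 1) scale. Max, the obligate partner, had 34.5 against 18.8 FPKM (Minimal Myc against vector, as in all later pairs of this form). Mxd3, a competitor of Myc for Max, had 29.6 against 14.4 FPKM, a ratio of 2.05 in plain FPKM, and Mycl1 (L-Myc) had 1.33 against 0.432 FPKM, a ratio of 3.08 at low levels.

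The interferon system held many of the large differences of the comparison. Among genes above 0 in both libraries, leaving out small RNAs and symbols of the Gm, LOC and Rik kind, 10 of the 15 highest were interferon genes. Of these 10, Mx2 and Oas2 reached the mean of 1 FPKM only through their level in Minimal Myc. Of 196 interferon-related genes in 7 lists, each counted once, 160 were measured, and 121 of these were at least 2-fold higher in Minimal Myc and none was 2-fold lower, against 13.7% and 2.52% of all genes. Their median difference was 1.95, against 0.47 over all genes. At least 4-fold higher were 77 of the 160, against 1.98% of all genes. Minimal Myc held the highest level of the 4 libraries for 137 of them, against 35.3% of all genes, and stood at least 2-fold above the highest of the other 3 libraries for 90, against 2.79%. Of the 160, 16 passed the filter on low values only through their level in Minimal Myc, so their places in these counts are in part set by the filter. Of the remaining 144, 105 were at least 2-fold higher (72.9%, against 13% of all genes filtered in the same way). At least 4-fold higher were 65 of the 144, against 180 of 11804 genes. At least 2-fold above the highest of the other 3 libraries were 74 of the 144, against 249 of 11804. After centring, 95 of the 160 were still at least 2-fold higher and 2, Aim2 and H2-DMa, were 2-fold lower. Without centring, 2 of the 160 were also at least 2-fold lower when 0.1 was added to FPKM in place of 1. In RNA from a whole culture, fewer cells of a type and less RNA per cell cannot be told apart.

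**Figure D1:**
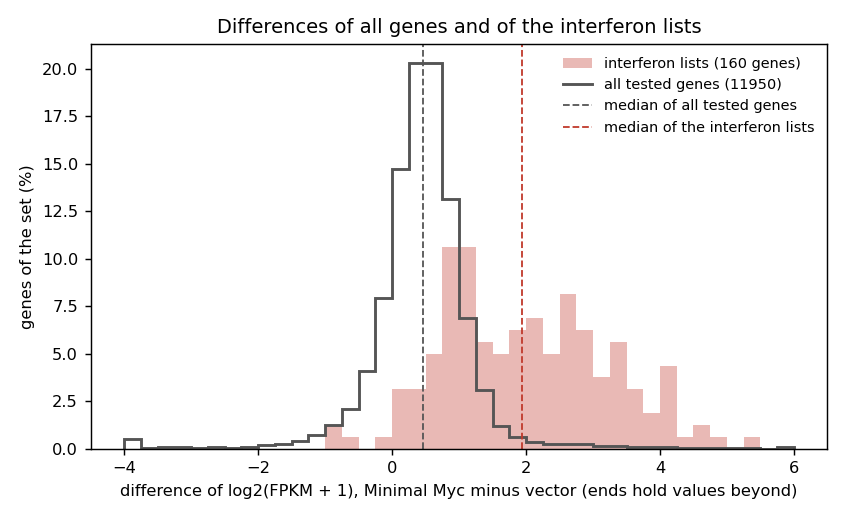
Distribution of the difference of log2(FPKM + 1), Minimal Myc minus vector (horizontal axis), as the percentage of genes in each bin (vertical axis), for the 160 measured interferon genes (filled) and all 11950 tested genes (outline). The dashed lines mark the medians, 1.95 for the interferon lists and 0.47 for all genes, and the interferon genes spread to the right of the peak of all genes.

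The Myc and MycN libraries, compared with the same vector library, gave other counts. In Myc, 12 of the 160 genes were at least 2-fold above vector and 3 were 2-fold below, with a median difference of 0.38. In MycN, 9 were above and 20 were below, with a median of 0.04. All 3 comparisons share the vector library, so a low value there would raise all of them. The levels in the Myc and MycN libraries themselves are therefore given beside many of the genes. Genes given only as Minimal Myc against vector lack this check.

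Among the ligands, interferon RNA was scarce. Ifnb1, the gene of interferon beta, did not reach the mean of 1 FPKM, at 1.25 FPKM in Minimal Myc, 0.0774 in Myc, 0.0377 in MycN and 0.314 in vector. These levels correspond to an estimated 61.0, 2.91, 1.94 and 11.6 fragments of Ifnb1 in the same 4 libraries. Ifna4, an early interferon alpha gene, stood at 0.306 FPKM in Minimal Myc, 0 in Myc, 0 in MycN and 0.0168 in vector, or an estimated 9.81 fragments in Minimal Myc and 0.409 in vector. Both values were highest in Minimal Myc and rest on few fragments. Ifng, the gene of interferon gamma made by lymphocytes, was listed at 0 in all 4.

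Receptor genes differed less than the genes behind them. Ifnar2, a chain of the type I interferon receptor, had 45.3 FPKM in Minimal Myc, 23.3 in Myc, 22.7 in MycN and 14.9 in vector. Its partner chain Ifnar1 had 14.9 against 10.2 FPKM, a difference of 0.50, close to the median of all genes. Il10rb, a chain shared by the receptors for interferon lambda and interleukin 10, had 25.7 against 9.52 FPKM. Of the 5 measured members, Ifnar2 and Il10rb were at least 2-fold higher (40%, against 13.7% of all genes). After centring only Ifnar2 was.

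In the signalling list, 13 of 22 measured genes were at least 2-fold higher (59.1%, against 13.7% of all genes) and none lower. The median difference was 1.21, and after centring 6 were at least 2-fold higher. Subunits of the transcription complex behind the type I receptor stood high together. Stat2 had 35 FPKM in Minimal Myc, 7.35 in Myc, 4.14 in MycN and 4.64 in vector. Irf9, the DNA-binding subunit, had 36.1 FPKM in Minimal Myc, 10.0 in Myc, 4.58 in MycN and 6.26 in vector. In both cases the Minimal Myc value lay well above the other 3. Irf7, the factor that amplifies interferon alpha production, had 58.3 FPKM in Minimal Myc, 3.83 in Myc, 0.685 in MycN and 7.41 in vector. Irf3, the factor that sensors activate first by phosphorylation, had 11.6 against 7.47 FPKM. The kinases of the receptor, which ligand binding activates, differed by less than 2-fold, with Jak1 at 60.2 against 32 FPKM and Tyk2 at 4.46 against 3.49 FPKM. Usp18, a protease that removes Isg15 from proteins and damps receptor signalling, gave the largest difference of the list, 4.35, with 136 FPKM in Minimal Myc, 7.33 in Myc, 0.988 in MycN and 5.74 in vector. Of the feedback inhibitors of the Socs family, Socs1 had 32.1 against 13.1 FPKM and Socs3 had 24.3 against 9.04 FPKM.

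The sensors of foreign nucleic acid followed, with 21 of 30 measured genes at least 2-fold higher (70%, against 13.7% of all genes) and a median of 1.74. After centring 17 were higher and 1 was lower. The filter was passed only through Minimal Myc by 2 of the 30, and 19 of the remaining 28 were at least 2-fold higher. Zbp1, which detects left-handed RNA and DNA helices, had 107 FPKM in Minimal Myc, 3.46 in Myc, 0.407 in MycN and 4.88 in vector. Ddx58, the RNA sensor RIG-I, had 50 FPKM in Minimal Myc, 11.2 in Myc, 6.87 in MycN and 7.5 in vector, and Ifih1, the RNA sensor MDA5, had 16.4 FPKM in Minimal Myc, 1.57 in Myc, 0.844 in MycN and 2.85 in vector. Oas1a, which turns viral double-stranded RNA into a signal for RNA decay, had 80.0 FPKM in Minimal Myc, 5.63 in Myc, 0.439 in MycN and 3.54 in vector. The adaptors and kinases that these sensors feed into split. Myd88, the adaptor of most Toll-like receptors, had 33.9 against 7.52 FPKM, a difference of 2.03. Tmem173 (Sting), the adaptor of cytosolic DNA sensing, had 27.9 against 12.3 FPKM, and the kinase Ikbke had 6.29 against 2.44 FPKM, both at least 2-fold higher. Mavs, the adaptor of Ddx58 and Ifih1, had 15.7 against 9.74 FPKM, a difference of 0.64, and the kinase Tbk1 had 16.2 against 9.87 FPKM. Ticam1, the adaptor of Tlr3, was level at 4.03 against 4.01 FPKM. Aim2, a sensor of cytosolic DNA that starts inflammasome assembly, went the other way at 1.05 FPKM in Minimal Myc, 1.34 in Myc, 1.12 in MycN and 2.68 in vector, the lowest of the list, although its Ifi200 relatives Mndal, Ifi203 and Ifi204 were 2.68 to 3.28 higher on the log2 scale. The Ifi200 genes are near-identical in places, so fragments may be shared among them.

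Antiviral effectors, the proteins that block viral entry, translation or release, numbered 56 measured genes. Of these, 50 were at least 2-fold higher (89.3%, against 13.7% of all genes) and none was 2-fold lower. At least 4-fold higher were 40 (71.4%, against 1.98%), and after centring 45 were at least 2-fold higher. The filter on low values was passed only through Minimal Myc by 9 of the 56, so their differences are in part set by the filter. Among the remaining 47, 41 were at least 2-fold higher and 33 were at least 4-fold higher. Isg15, a ubiquitin-like protein attached to viral and host proteins, had 753 FPKM in Minimal Myc, 50.3 in Myc, 28.4 in MycN and 58.4 in vector. Bst2, the tetherin that holds budding virus at the cell surface, had 997 FPKM in Minimal Myc, 93.9 in Myc, 43.8 in MycN and 77.9 in vector. Ifitm3, which blocks entry from endosomes, had 1350.3 FPKM in Minimal Myc, 290.1 in Myc, 230.2 in MycN and 188 in vector. These were among the most abundant of the effectors, and the Myc, MycN and vector libraries all lay far below Minimal Myc. Slfn2, a Schlafen family protein, gave the largest difference at 4.90, with 70.3 FPKM in Minimal Myc, 3.23 in Myc, 0.925 in MycN and 1.38 in vector. Ifi44 had 136 FPKM in Minimal Myc against 4.35 in vector, and Ifit3, an RNA-binding blocker of translation, had 141 against 6.60 FPKM. Mx2, a dynamin-like GTPase, had 39.8 against 1.16 FPKM and Oas2 had 32 against 0.421 FPKM. Mx2 and Oas2 were among the 9 that passed the filter only through Minimal Myc.

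A few effectors stayed near vector. Oasl1, which represses Irf7 translation in mice, had 27.6 FPKM in Minimal Myc, 2.88 in Myc, 1.17 in MycN and 23.1 in vector, so here vector stood beside Minimal Myc and far above the other 2. Ifit2, a close relative of Ifit3, had 17.4 against 9.30 FPKM, and Slfn5 had 3.18 against 3.57 FPKM. The effectors thus did not share a single ratio of Minimal Myc to vector.

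The interferon-inducible GTPases, which attack the vacuoles of intracellular parasites and bacteria, had the highest median of the lists, 3.23. The 14 measured members had differences of 2.01 to 5.28, and each stood at least 2-fold above the highest of the other 3 libraries. Of these, 5 (Gbp4, Gbp6, Gbp10, Tgtp2 and Gvin1) averaged under 1 FPKM in the other 3 libraries and passed the filter only through Minimal Myc, so their differences are in part set by the filter. The remaining 9, which pass without Minimal Myc, were all at least 4-fold higher, with a median of 3.17. Iigp1 (Irga6) had 77.9 FPKM in Minimal Myc, 2.37 in Myc, 0.170 in MycN and 1.03 in vector. Gbp3 had 80.0 FPKM in Minimal Myc, 4.34 in Myc, 1.88 in MycN and 3.54 in vector, Igtp (Irgm3) had 54.7 FPKM in Minimal Myc, 4.61 in Myc, 1.66 in MycN and 2.63 in vector and Irgm1, a regulator of the other members, had 78.9 FPKM in Minimal Myc, 11.1 in Myc, 4.09 in MycN and 7.86 in vector. The least abundant measured member, Gbp4, had 4.12 FPKM in Minimal Myc, 0.800 in Myc, 0.0970 in MycN and 0.276 in vector. The Gbp genes are recent copies of one another, so their single values are uncertain where fragments match several of them.

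MHC class I presentation, the display of peptides on the cell surface, came next. There 19 of 28 measured genes were at least 2-fold higher (67.9%, against 13.7% of all genes) and none lower. After centring 11 were higher. The interferon-inducible catalytic subunit Psmb8 of the immunoproteasome had 86.3 FPKM in Minimal Myc, 6.52 in Myc, 8.22 in MycN and 7.77 in vector. Tap1, a subunit of the peptide pump, had 28.7 FPKM in Minimal Myc, 4.27 in Myc, 5.97 in MycN and 4.78 in vector, and Erap1, the aminopeptidase that trims the peptides, had 14.2 FPKM in Minimal Myc, 7.13 in Myc, 4.97 in MycN and 2.34 in vector. Class I heavy chain H2-K1 had 414 FPKM in Minimal Myc, 136 in Myc, 159 in MycN and 174 in vector, and B2m, the invariant light chain, had 2324 FPKM in Minimal Myc, 911 in Myc, 1073 in MycN and 1269 in vector. A NanoString measurement, a direct hybridization count of RNA molecules deposited in the same table, read B2m at 57149 in Minimal Myc, 62438 in Myc, 22834 in MycN and 46911 in vector. Its ratio of Minimal Myc to vector was 1.22, whereas the FPKM ratio was 1.83. By NanoString the Myc culture, not Minimal Myc, had the highest B2m value. The general folding chaperones of the pathway stood at the low end of the list, with Canx (calnexin) at 109 against 62.1 FPKM.

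Genes better known from interferon gamma split. Of 9 measured, 6 were at least 2-fold higher (66.7%, against 13.7% of all genes). After centring 4 were higher and 1, H2-DMa, was lower. Among the 6 was Nos2, the inducible nitric oxide synthase, at 11.2 FPKM in Minimal Myc, 1.07 in Myc, 1.94 in MycN and 0.517 in vector. Another was Irf1, at 43.1 FPKM in Minimal Myc, 29.9 in Myc, 28.5 in MycN and 12.6 in vector. Without centring, the measured MHC class II genes of the list differed by less than 2-fold on the log2(FPKM + 1) scale. Cd74, the invariant chain of class II, had 2.06 FPKM in Minimal Myc, 6.96 in Myc, 42.9 in MycN and 3.39 in vector, and H2-DMa, a chain of the class II peptide loader, had 1.17 FPKM in Minimal Myc, 2.16 in Myc, 6.33 in MycN and 3.02 in vector, both lowest in Minimal Myc. H2-DMb1, the partner chain of H2-DMa, had 12.1 against 8.69 FPKM, a difference of 0.44, close to the median of all genes. Ciita, the master regulator of class II genes, had 0.0250 FPKM in Minimal Myc, 0.0317 in Myc, 0.0374 in MycN and 0.0791 in vector, and Cxcl9 had 0.134 FPKM in Minimal Myc, 0.0961 in Myc, 0.136 in MycN and 0.197 in vector, both near 0 throughout.

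Immune cell markers did not accompany these levels. Of 14 such markers 12 were under 1 FPKM in Minimal Myc, and their summed level was 3.32 FPKM in Minimal Myc, 7.18 in Myc, 9.92 in MycN and 6.09 in vector. Ptprc (CD45), the surface protein of all white blood cells, was listed at 0 in Minimal Myc. Tyrobp, an adaptor of myeloid cells, was listed at 0 in Minimal Myc, Myc and vector.

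**Figure D2:**
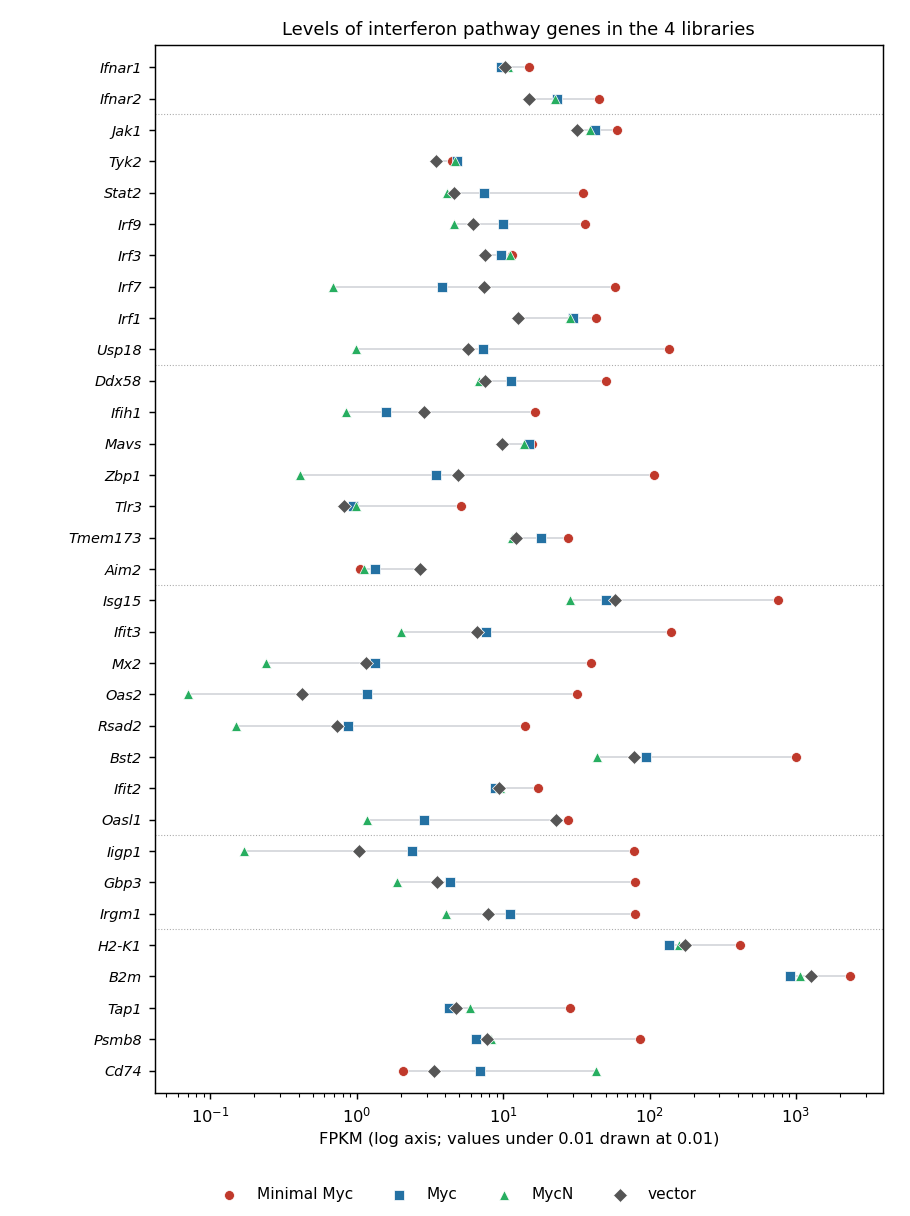
FPKM on a log axis (horizontal) of 33 interferon pathway genes (vertical, from receptors and signalling at the top through sensors, effectors and GTPases to MHC genes, separated by dotted lines) in the Minimal Myc, Myc, MycN and vector libraries, 1 point each. Minimal Myc is the highest of the 4 for nearly all of them, whereas Aim2 and Cd74 are lowest in it and Oasl1 is about level with vector.

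The promoters of these genes were read for the ISRE. Its core was searched as GAAANNGAAA, where N is any base, on both strands and counted once per promoter, in the RefSeq promoters of mouse build GRCm38.p6, which run from 250 bases before to 50 bases after each transcription start. Promoters were in the table for 8590 of the 11950 genes (71.9%), 10943 in all. Coverage was lower at both ends, with 49 of 104 genes at a difference of 3 or more and 99 of 301 at -1 or below. Of the GTPases, 7 of 14 were covered. The following are stretches from the upper end of the interferon lists that hold the core, shown 5′ to 3′ on the strand of the gene with 25 bases on either side and with the core in capitals. The capitals run longer where cores overlap, and the Ifit3 line ends at the second core of that promoter.
Stat2 (chr10:128270251-128270310, plus strand): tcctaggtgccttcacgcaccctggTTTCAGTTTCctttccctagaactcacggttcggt
Mndal (chr1:173880189-173880248, minus strand): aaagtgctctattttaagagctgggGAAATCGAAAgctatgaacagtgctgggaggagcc
Oas1a (chr5:120907511-120907570, minus strand): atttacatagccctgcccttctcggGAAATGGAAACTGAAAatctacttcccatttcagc
Oas1g (chr5:120887597-120887656, minus strand): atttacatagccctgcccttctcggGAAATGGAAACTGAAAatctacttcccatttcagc
Ifit3 (chr19:34583348-34583416, plus strand): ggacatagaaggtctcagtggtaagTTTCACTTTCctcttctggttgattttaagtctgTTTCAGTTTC
Gbp3 (chr3:142559974-142560033, plus strand): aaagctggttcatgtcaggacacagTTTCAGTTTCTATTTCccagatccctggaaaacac
Gbp2 (chr3:142620579-142620638, plus strand): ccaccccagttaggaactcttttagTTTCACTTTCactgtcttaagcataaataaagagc
Igtp (chr11:58199497-58199556, plus strand): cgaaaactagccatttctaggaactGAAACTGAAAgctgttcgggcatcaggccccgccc
H2-T22 (chr17:36042899-36042958, minus strand): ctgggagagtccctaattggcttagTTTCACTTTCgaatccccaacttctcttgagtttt

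The core lies upstream of the start in each of these 9, from -222 to -213 in Stat2 and from -20 to -11 in Oas1a, counted from the transcription start. Socs1 and Erap1 were picked in the same way and are not shown. Their first core lies from -83 to -74 in Socs1 and across the start, from -4 to 6, in Erap1. The stretches of Oas1a and Oas1g are the same letters at 2 places on chromosome 5, and fragments of the 2 transcripts may likewise be shared. Of the genes among these not given above, Oas1g had 51.3 against 2.71 FPKM, Mndal 34.3 against 2.64 FPKM and Gbp2 42.8 against 4.70 FPKM. H2-T22, a class I gene, had 85.0 FPKM in Minimal Myc, 37.3 in Myc, 24.6 in MycN and 20.2 in vector.

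The share of promoters with the core differed along the comparison. It was 28.8% (19 of 66 promoters) for genes at a difference of 3 or more and 20% (20 of 100 promoters) for genes from 2 to 3. It was 3.84% for genes from 1 to 2, 2.47% from 0 to 1, 3.04% from -1 to 0 and 0.781% (1 of 128) for genes at -1 or below, against 3.02% of all tested promoters and 3.44% of all 32851 promoters in the table. Genes at 3 or more that are in no interferon list had the core in 3 of 41 promoters (7.32%), so most of the 19 belong to interferon list genes. Among the lists the core was in 7 of 8 promoters of the GTPases (87.5%), 19 of 53 of the antiviral effectors (35.8%), 9 of 28 of the sensors (32.1%), 5 of 23 of MHC class I (21.7%) and 3 of 22 of the signalling genes (13.6%). A match of these letters is a description of the sequence and not a bound site.

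The same windows were read for 2 other elements. The GAS element bound by pairs of Stat proteins, searched as TTCNNNGAA, which reads the same on both strands, was in 16.9% of interferon list promoters (24 of 142) against 6.89% of tested promoters. It can share bases with the ISRE core where both lie together. The E-box CACGTG bound by Myc and Max, also its own reverse, was in 4.23% of interferon list promoters (6 of 142) and in 10.2% of tested promoters. In the nucleolar ribosome assembly genes described below, the E-box was in 22.9% (11 of 48) and the ISRE core in none of the 48.

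**Figure D3:**
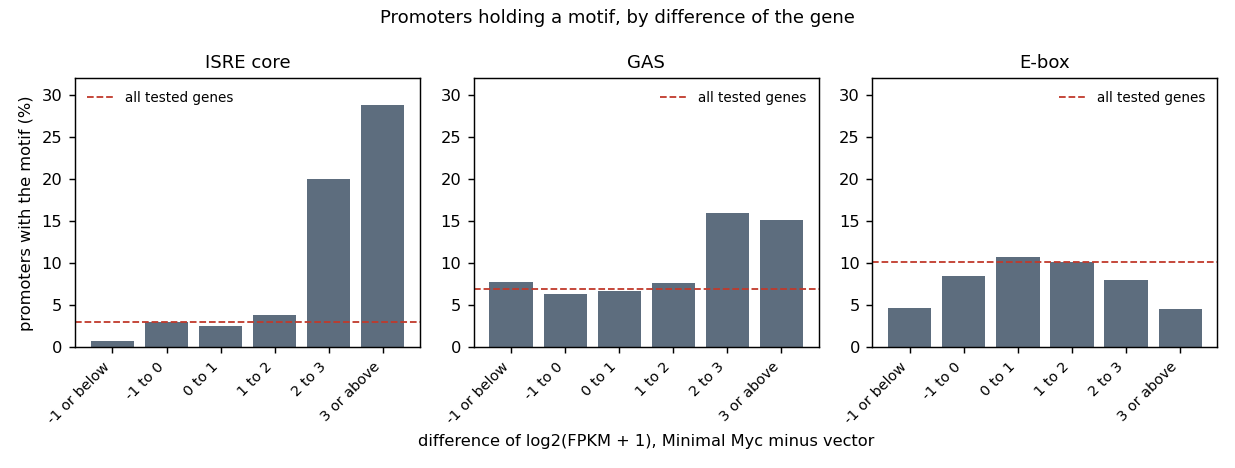
Percentage of RefSeq promoters holding the ISRE core, the GAS element or the E-box (vertical axes), in 6 bins of the difference of log2(FPKM + 1), Minimal Myc minus vector (horizontal axes). The dashed lines are the shares over all tested genes (3.02%, 6.89% and 10.2%), and the ISRE core reaches 28.8% in the bin of the highest differences.

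Secreted signals of inflammation were higher as well, with less uniformity. Of 19 measured cytokines and acute phase proteins, 13 were at least 2-fold higher in Minimal Myc (68.4%, against 13.7% of all genes). None was 2-fold lower, although 2 were below vector. The median was 1.36, and after centring 6 were at least 2-fold higher. The filter on low values was passed only through Minimal Myc by 3 of the 19. Of the remaining 16, 10 were at least 2-fold higher (62.5%), with a median of 1.28. Saa3, an acute phase apolipoprotein, had 227 FPKM in Minimal Myc, 30.7 in Myc, 34.4 in MycN and 3.34 in vector. Il6, the cytokine that drives the acute phase, had 23.8 FPKM in Minimal Myc, 4.86 in Myc, 1.08 in MycN and 1.58 in vector, and Ptx3, a soluble pattern receptor, had 128 FPKM in Minimal Myc, 27.4 in Myc, 48.2 in MycN and 15.1 in vector. Here Myc and MycN mostly lay between Minimal Myc and vector. Lcn2, a siderophore-binding protein, was highest in MycN, at 31.0 FPKM in Minimal Myc, 8.73 in Myc, 55.2 in MycN and 4.04 in vector. Il33, an alarmin of stromal cells, had 27.7 FPKM in Minimal Myc, 3.85 in Myc, 0.690 in MycN and 9.39 in vector.

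Of 15 chemokines, 8 were at least 2-fold higher (53.3%, against 13.7% of all genes) and none was 2-fold lower. After centring 6 were higher and 1 was lower. The filter on low values was passed only through Minimal Myc by 3 of the 15. Of the remaining 12, 6 were at least 2-fold higher (50%), and the median went from 1.38 to 1.11. The neutrophil attractant Cxcl5 had 358 FPKM in Minimal Myc, 41.4 in Myc, 128 in MycN and 59.4 in vector. Cxcl1, another neutrophil attractant, had 906 FPKM in Minimal Myc, 222 in Myc, 472 in MycN and 182 in vector. The monocyte attractants Ccl7 and Ccl2 had 791 against 163 FPKM and 1193 against 328 FPKM. Cxcl10, an interferon-inducible T cell attractant, had 173 FPKM in Minimal Myc, 40.4 in Myc, 120.2 in MycN and 63.9 in vector, a smaller difference than most interferon genes. Ccl5, also inducible by interferon and by NF-kB, had 125 FPKM in Minimal Myc, 29.6 in Myc, 74.7 in MycN and 159 in vector, so vector was the highest of the 4. Cx3cl1, a membrane-bound chemokine, was lowest in Minimal Myc at 1.6 FPKM in Minimal Myc, 5.47 in Myc, 24.5 in MycN and 2.90 in vector.

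The NF-kB regulators lay nearer to the bulk of genes. Of 24 measured, 4 were at least 2-fold higher (Birc3, Bcl3, Nfkbiz and Tnip1), 16.7% against 13.7% of all genes, and the median was 0.71. Nfkbia, the inhibitor that NF-kB itself induces, had 49.1 FPKM in Minimal Myc, 73.2 in Myc, 117 in MycN and 45.7 in vector, and Tnfaip3 (A20), another induced inhibitor, had 4.49 FPKM in Minimal Myc, 5.61 in Myc, 9.01 in MycN and 7.56 in vector. Both were highest in MycN. Of 11 complement genes 4 were at least 2-fold higher (36.4%, against 13.7% of all genes), and after centring none was. C1s, a protease of the classical pathway, had 32.5 against 13.5 FPKM. The central component C3 had 5.91 FPKM in Minimal Myc, 15.0 in Myc, 76.9 in MycN and 8.33 in vector.

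Among cell death effectors, 10 of 26 were at least 2-fold higher (38.5%, against 13.7% of all genes) and none was 2-fold lower, with a median of 0.66. After centring 4 were at least 2-fold higher and 1 was lower. Casp4 (caspase 11), which senses bacterial lipopolysaccharide in the cytosol, had 54.7 FPKM in Minimal Myc, 7.61 in Myc, 12.8 in MycN and 10.1 in vector. Casp12 had 29.8 FPKM in Minimal Myc, 9.04 in Myc, 6.82 in MycN and 5.78 in vector. Ripk3 and Gsdmd, which carry out necroptosis and pyroptosis, had 22.9 against 8.09 FPKM and 25.7 against 10.1 FPKM. The death receptor Fas stood at 16.6 FPKM in Minimal Myc, 12.6 in Myc, 18.2 in MycN and 3.24 in vector, so it was low in vector alone. The mitochondrial regulators Bcl2 and Bbc3 (Puma) were level, at 2.21 against 2.22 FPKM and 3.69 against 4.15 FPKM.

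**Figure D4:**
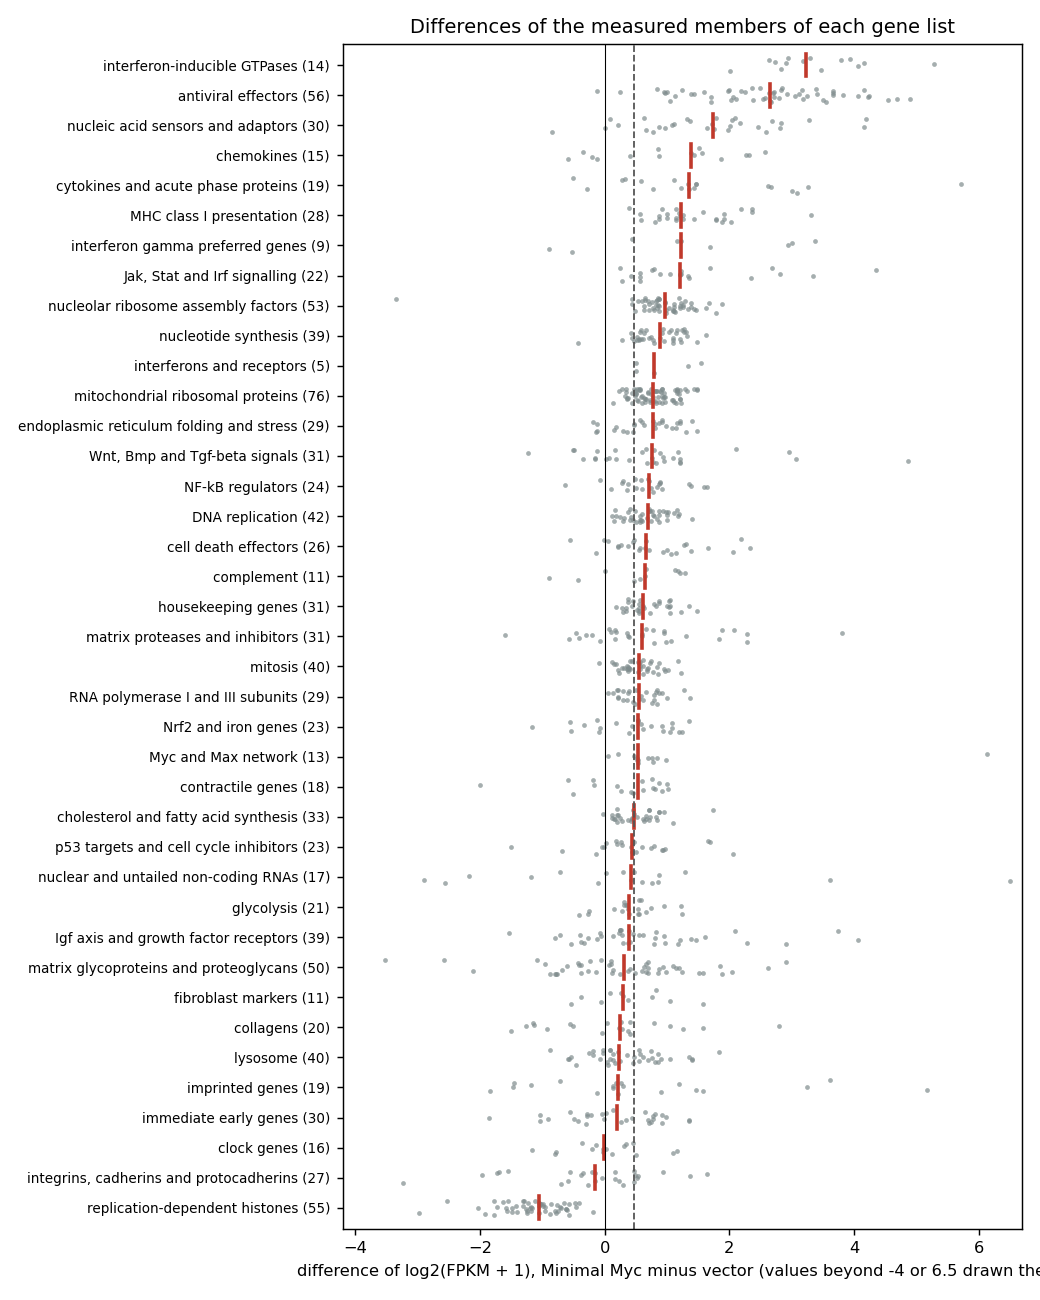
Difference of log2(FPKM + 1), Minimal Myc minus vector (horizontal axis), of each measured member (grey points) of the 39 gene lists with at least 5 measured members (vertical axis, number measured in brackets), ordered by their medians (red bars). The solid line marks 0 and the dashed line the median of all genes, 0.47. Interferon-inducible GTPases and antiviral effectors head the order and replication-dependent histones close it.

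The growth genes for which Myc is known were also above vector, by smaller steps. Of 53 measured nucleolar ribosome assembly factors, 23 were at least 2-fold higher (43.4%, against 13.7% of all genes), with a median of 0.97. The highest was Nhp2, a protein of the snoRNA-guided modification particles, at 179 FPKM in Minimal Myc, 144 in Myc, 80.7 in MycN and 47.8 in vector. Dkc1, the pseudouridine synthase of those particles, had 51.2 FPKM in Minimal Myc, 49.1 in Myc, 38.1 in MycN and 15.4 in vector, and Ncl (nucleolin) had 163 FPKM in Minimal Myc, 221 in Myc, 153 in MycN and 59.9 in vector. After centring 4 were 2-fold higher, and Minimal Myc was the highest library for 11 of the 53. In the Myc library 42 of the 53 were at least 2-fold above the same vector library, and in MycN 14 were. Gnl3l was the one member at least 2-fold lower, since it is listed at 0 in Minimal Myc, which can be a failed estimate.

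The other growth lists are read against the 13.7% of all genes that were at least 2-fold higher. Nucleotide synthesis had 16 of 39 genes (41% and a median of 0.88), led by Prps2, which makes the sugar phosphate for all nucleotides, at 18.8 against 5.41 FPKM. Mitochondrial ribosomal proteins had 19 of 76 (25%, median 0.78) and endoplasmic reticulum folding and stress genes 8 of 29 (27.6%, median 0.77). DNA replication, with 7 of 42 (16.7%, median 0.69), was near the share of all genes, with Mcm6, a subunit of the replicative helicase, at 94.0 against 35 FPKM. Mitosis, with 3 of 40 (7.5%, median 0.55), and RNA polymerase I and III subunits, with 2 of 29 (6.9%, median 0.55), were under it, and Cdk1, the mitotic kinase, had 91.3 against 44.9 FPKM. Beside these, 9 of 31 housekeeping genes were at least 2-fold higher (29%), with a median of 0.62, and after centring at most 2 genes in each of these 6 lists were. By FPKM the medians of the 6 lists, from 0.55 to 0.88, thus lay on both sides of the 0.62 of housekeeping genes.

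Among secreted regulators of Wnt, Bmp and Tgf-beta signalling, a few genes were high in Minimal Myc. Sfrp1, a secreted Wnt antagonist, had 33.9 FPKM in Minimal Myc, 5.58 in Myc, 0.138 in MycN and 0.198 in vector. Wnt10a, a Wnt ligand, had 7.33 FPKM in Minimal Myc, 0.00832 in Myc, 1.23 in MycN and 0.0759 in vector. Gdf10, a member of the Tgf-beta superfamily, had 26.2 FPKM in Minimal Myc, 0.254 in Myc, 0.0417 in MycN and 5.32 in vector. All 3 were highest in Minimal Myc, and no other library exceeded 5.58 FPKM for any of them. Wnt10a passed the filter on low values only through Minimal Myc, so its difference is in part set by the filter. The list as a whole had 9 of 31 genes at least 2-fold higher (29%, against 13.7% of all genes), 1 lower (Dkk2, 0.994 against 3.68 FPKM) and a median of 0.76. After centring 4 were higher and 1 was lower.

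In the Igf axis and growth factor list, 10 of 39 were at least 2-fold higher (25.6%, against 13.7% of all genes) and 1 was lower (2.56%, near the 2.52% of all genes), with a median of 0.39, under that of all genes. After centring 6 were higher and 3 were lower. Igfbp3, which binds insulin-like growth factors, had 39.8 FPKM in Minimal Myc, 7.88 in Myc, 25.3 in MycN and 1.44 in vector. Its relative Igfbp4 had 28.7 FPKM in Minimal Myc, 3.75 in Myc, 0.573 in MycN and 1.22 in vector. Both were highest in Minimal Myc. Hgf, the ligand of the Met receptor made by stromal cells, had 29.3 FPKM in Minimal Myc, 2.57 in Myc, 5.60 in MycN and 3.04 in vector. Fgf7, a stromal growth factor for epithelium, had 162 FPKM in Minimal Myc, 96.3 in Myc, 21.8 in MycN and 37.3 in vector. Fgf2 was the gene at least 2-fold lower without centring, at 0.754 FPKM in Minimal Myc, 1.22 in Myc, 0.716 in MycN and 4.07 in vector.

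Imprinted genes, expressed from 1 parental copy, went both ways, with a median of 0.21. At least 2-fold higher were 6 of 19 (31.6%, against 13.7% of all genes), and 4 were lower (21.1%, against 2.52%). The filter on low values was passed only through Minimal Myc by 3 of the 19. Of the remaining 16, 3 were at least 2-fold higher (18.8%, against 13% of all genes filtered in the same way). After centring 4 of the 19 were higher and 5 were lower. Grb10, an adaptor that restrains insulin and Igf receptor signalling, had 38.7 FPKM in Minimal Myc, 17.5 in Myc, 0.105 in MycN and 0.0977 in vector. Meg3, a non-coding RNA of the maternal copy of its locus, had 12.8 FPKM in Minimal Myc, 0.0365 in Myc, 1.21 in MycN and 0.124 in vector. Rian, a second non-coding RNA of that maternal copy, had 9.74 FPKM in Minimal Myc, 0.163 in Myc, 0.988 in MycN and 0.134 in vector. Both were near 0 in vector, and both passed the filter only through Minimal Myc. Dlk1, from the paternal copy of that locus, was about level with vector, at 185 FPKM in Minimal Myc, 44.0 in Myc, 375 in MycN and 151 in vector. On the lower side Peg3, a zinc finger protein, had 1.71 FPKM in Minimal Myc, 6.77 in Myc, 9.99 in MycN and 6.41 in vector, Airn, a non-coding RNA that silences neighbours of Igf2r, had 0.765 FPKM in Minimal Myc, 3.37 in Myc, 6.28 in MycN and 3.86 in vector, and H19 had 0.576 FPKM in Minimal Myc, 1.72 in Myc, 0.439 in MycN and 4.62 in vector. Peg3 and Airn stood at least 2-fold below the lowest of the other 3 libraries, a position taken by 66 genes (0.552% of all tested).

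Matrix and adhesion genes split without a common direction. Among 20 measured collagens 4 were at least 2-fold higher (20%, against 13.7% of all genes) and 4 lower (20%, against 2.52%), and after centring 2 were higher and 6 lower. Col12a1, which decorates collagen fibrils, had 21.0 FPKM in Minimal Myc, 3.02 in Myc, 4.91 in MycN and 2.15 in vector, and Col5a2, which sets fibril width, had 171 FPKM in Minimal Myc, 84.9 in Myc, 82.8 in MycN and 56.8 in vector. Col6a3, of the beaded filaments around cells, had 2.45 FPKM in Minimal Myc, 22.5 in Myc, 25.9 in MycN and 8.74 in vector, and Col4a1, of basement membrane, had 19 FPKM in Minimal Myc, 56.2 in Myc, 24.8 in MycN and 43.4 in vector. Col12a1 and Col5a2 were highest and Col6a3 lowest in Minimal Myc, whereas Col4a1 was also low in MycN.

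Of 50 glycoproteins and proteoglycans, 11 were at least 2-fold higher (22%) and 4 lower (8%), and after centring 7 were higher and 11 lower. Spp1 (osteopontin) had 1441 FPKM in Minimal Myc, 220.2 in Myc, 82.7 in MycN and 234 in vector, Thbs1 (thrombospondin) 528 FPKM in Minimal Myc, 223 in Myc, 71.5 in MycN and 127 in vector, and Lox, the enzyme that crosslinks collagen, 297 FPKM in Minimal Myc, 144 in Myc, 61.1 in MycN and 80.2 in vector. Spon2 had 0.287 FPKM in Minimal Myc, 1.06 in Myc, 2.59 in MycN and 13.8 in vector, an estimated 47.1 fragments in Minimal Myc and 1709 in vector. Tinagl1, a basement membrane protein, had 8.68 FPKM in Minimal Myc, 25 in Myc, 42.7 in MycN and 56.9 in vector, and Nov (Ccn3) had 3.52 FPKM in Minimal Myc, 27.6 in Myc, 22.9 in MycN and 18.5 in vector. For these last 3, Minimal Myc was the lowest of the 4 libraries.

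Matrix proteases and their inhibitors had 8 of 31 at least 2-fold higher (25.8%, against 13.7% of all genes) and 1 lower (3.23%, against 2.52%). Timp1, an inhibitor of matrix metalloproteases, had 708 FPKM in Minimal Myc, 76.3 in Myc, 60.8 in MycN and 144 in vector, and Mmp13, a collagenase, had 13.4 FPKM in Minimal Myc, 2.87 in Myc, 0.916 in MycN and 1.95 in vector. Mmp9, a gelatinase, was the lower one at 3.22 FPKM in Minimal Myc, 14.1 in Myc, 41.6 in MycN and 11.8 in vector. Slpi, a protease inhibitor of secretions, had 24.3 FPKM in Minimal Myc, 49.0 in Myc, 33.4 in MycN and 0.815 in vector, so it was low in vector alone.

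Integrins, cadherins and protocadherins had the lowest median, -0.16, of the non-histone lists with at least 5 measured members. At least 2-fold lower were 5 of the 27 genes (18.5%, against 2.52% of all genes), and 2 were higher (7.41%, against 13.7%). After centring 8 were lower and 1 was higher. Itgb5, an integrin chain, had 85.0 FPKM in Minimal Myc, 30.3 in Myc, 36.8 in MycN and 26.6 in vector. Cdh11, the cadherin typical of mesenchyme, had 88.5 FPKM in Minimal Myc, 33.5 in Myc, 30.6 in MycN and 33.5 in vector. Both were highest in Minimal Myc. Pcdh10, a protocadherin, had 0.106 FPKM in Minimal Myc, 1.03 in Myc, 2.66 in MycN and 9.42 in vector, and Mcam, an adhesion molecule of the vessel wall, had 5.85 FPKM in Minimal Myc, 3.17 in Myc, 14.3 in MycN and 25.7 in vector. Among contractile genes 2 of 18 were at least 2-fold higher (11.1%, against 13.7% of all genes) and 1 was lower (5.56%, against 2.52%). The lower gene was Actg2 (smooth muscle gamma actin), at 3.48 against 16.9 FPKM.

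**Figure D5:**
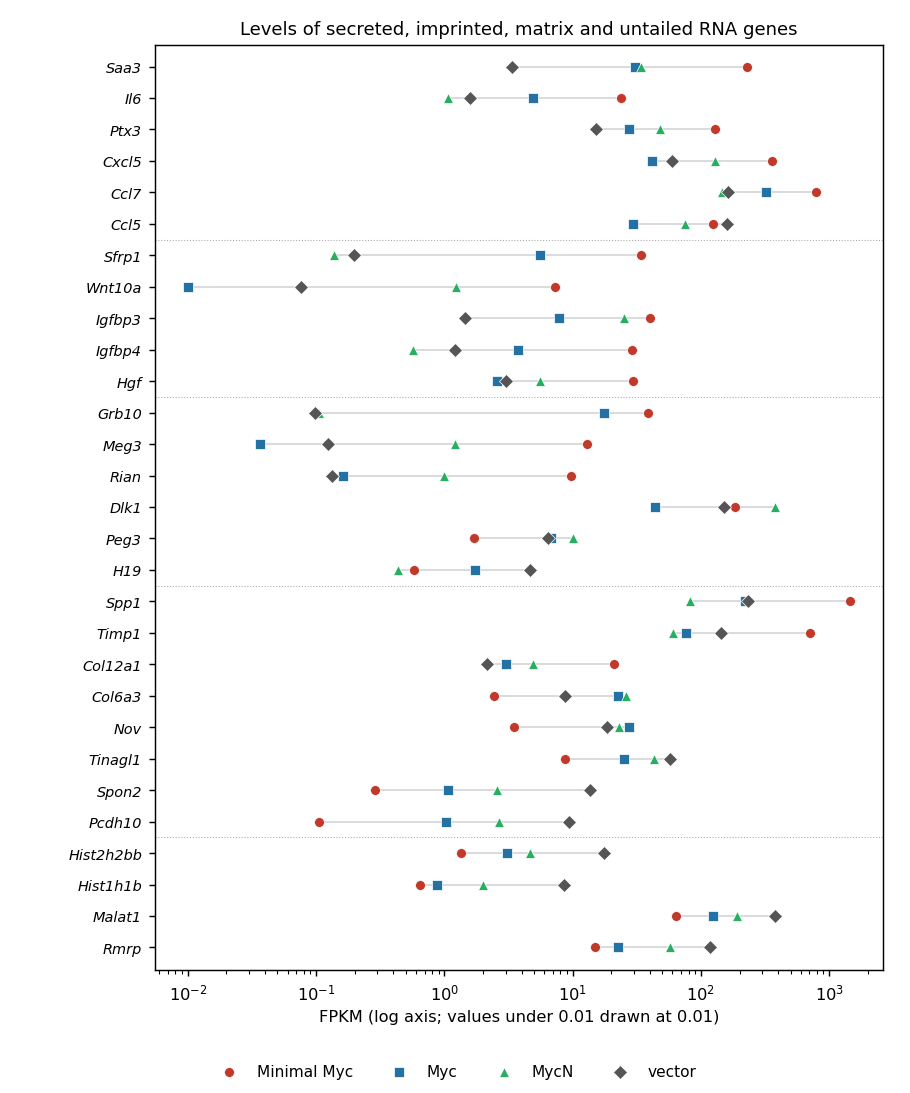
FPKM on a log axis (horizontal) of 29 genes outside the interferon lists (vertical, from secreted inflammatory signals at the top through secreted regulators, imprinted genes, matrix and adhesion genes to histones and non-coding RNAs, separated by dotted lines) in the Minimal Myc, Myc, MycN and vector libraries, 1 point each. Minimal Myc is the lowest of the 4 for all 4 histone and non-coding RNAs at the bottom.

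Replication-dependent histone genes, whose main transcripts end in a stem-loop and carry no poly(A) tail, formed the low end. Of 55 measured, 33 were at least 2-fold lower in Minimal Myc (60%, against 2.52% of all genes) and none was higher. The median was -1.05, and after centring 51 were 2-fold lower. Hist2h2bb had 1.36 FPKM in Minimal Myc, 3.05 in Myc, 4.62 in MycN and 17.5 in vector, and Hist1h1b, a linker histone, had 0.647 FPKM in Minimal Myc, 0.883 in Myc, 2 in MycN and 8.53 in vector. Every one of the 55 was below vector. In Myc 17 of the 55 were at least 2-fold below the same vector library (median -0.79), and in MycN 4 were (median -0.51). Histone genes are near-identical copies, so their single values are uncertain.

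The list of nuclear and untailed non-coding RNAs went both ways. Of 17 measured, 3 were at least 2-fold higher in Minimal Myc (17.6%, against 13.7% of all genes) and 4 were lower (23.5%, against 2.52%). The median was 0.42, and 11 stood above vector and 6 below it. The 3 lowest are known to lack an ordinary poly(A) tail. Rmrp, the RNA of the mitochondrial RNA processing ribonuclease, had 14.9 FPKM in Minimal Myc, 22.5 in Myc, 57.7 in MycN and 118 in vector. Rpph1, the RNA of ribonuclease P, had 11.6 FPKM in Minimal Myc, 12.2 in Myc, 35.6 in MycN and 55.9 in vector, and Malat1, a nuclear RNA, had 64.0 FPKM in Minimal Myc, 124 in Myc, 192 in MycN and 381 in vector. At the other end Rn45s, the ribosomal RNA precursor, had 1059 FPKM in Minimal Myc and 995 in Myc and was listed at 0 in MycN and vector, which can be a failed estimate. The libraries were made from RNA selected by poly(A) tail, and the part of that selection in the histone values was not tested. Tailed host genes of small nucleolar RNAs were not low, with Snhg6 at 234 against 94.9 FPKM and Gas5 at 32.2 against 17.4 FPKM. Of 309 small RNA genes that passed the filter, 105 were at least 2-fold lower (against 2.52% of all genes) and 63 higher (against 13.7%). Their median difference was 0, against 0.47 over all genes. Without the small RNA genes 1579 of 11641 genes were higher and 196 lower.

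The p53 targets and cell cycle inhibitors had shares near those of all genes. Of 23 measured, 3 were at least 2-fold higher (13%, against 13.7%) and 1 was lower (4.35%, against 2.52%). Cdkn2a, which encodes p16 and Arf, had 737 FPKM in Minimal Myc, 536 in Myc, 543 in MycN and 227 in vector, and its neighbour Cdkn2b had 70.5 FPKM in Minimal Myc, 31.5 in Myc, 24.6 in MycN and 21.6 in vector, whereas Cdkn1a (p21) had 8.18 FPKM in Minimal Myc, 9.92 in Myc, 16.5 in MycN and 25 in vector. The inhibitors of the Cdkn2 locus and p21 thus stood on opposite sides of vector, and p21 was highest in vector. Trp53 itself had 98.4 against 58.4 FPKM.

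Immediate early genes, which answer growth factors and stress within minutes, had 2 of 30 at least 2-fold higher (6.67%, against 13.7% of all genes) and 3 lower (10%, against 2.52%). After centring none was higher and 5 were lower. Egr1 had 97.9 FPKM in Minimal Myc, 20.1 in Myc, 24.5 in MycN and 37.9 in vector, and Dusp4, a phosphatase that switches Erk signalling off, had 11.6 FPKM in Minimal Myc, 14.7 in Myc, 9.52 in MycN and 44.3 in vector. Clock genes had a median of -0.00, with Nfil3 at 22.7 against 9.57 FPKM and Nr1d1 at 11.4 against 26.8 FPKM, so the RNA of the repressor Nr1d1 was the lowest of the 16. In the Nrf2 and iron list 6 of 23 were at least 2-fold higher (26.1%, against 13.7% of all genes), and none was after centring. Tfrc, the receptor for iron-loaded transferrin, had 57.0 against 21.7 FPKM. The 1 lower gene (4.35%, against 2.52%) was Hmox1 (heme oxygenase 1), at 64.8 FPKM in Minimal Myc, 153 in Myc, 131 in MycN and 147 in vector.

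Lipid and energy genes lay near or under the median of all genes. Cholesterol and fatty acid synthesis had 2 of 33 at least 2-fold higher (6.06%, median 0.48), Ebp, a sterol isomerase, and Scap, the sterol sensor. Glycolysis had 2 of 21 (9.52%, median 0.40), Pfkfb3, which makes the activator of phosphofructokinase, and Pgk1. Lysosomal genes had 5 of 40 (12.5%, against 13.7% of all genes) and a median of 0.23, and after centring 1 was higher and 4 were lower. The collagen-degrading cathepsin Ctsk had 15.9 FPKM in Minimal Myc, 1.21 in Myc, 4.59 in MycN and 3.71 in vector. The lysosomal membrane protein Lamp2 had 188 FPKM in Minimal Myc, 78.3 in Myc, 89.6 in MycN and 73.5 in vector.

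Of the 15 highest genes chosen as described above, that is above 0 in both libraries and without small RNAs and Gm, LOC and Rik symbols, 14 were in one of the lists. The exception was Nsg1, a protein of neuronal endosomes, at 83.6 FPKM in Minimal Myc, 7.39 in Myc, 9.77 in MycN and 3.22 in vector. The 15 lowest held none of the interferon genes. Beside the genes already named, they included Psca, a surface antigen of epithelia, at 2.32 FPKM in Minimal Myc, 8.98 in Myc, 14.3 in MycN and 29.2 in vector, P2rx3, an ATP-gated channel of sensory neurons, at 0.570 FPKM in Minimal Myc, 0.699 in Myc, 1.16 in MycN and 8.14 in vector, and Krt19, a keratin, at 1.66 FPKM in Minimal Myc, 10.6 in Myc, 4.34 in MycN and 13.2 in vector. The lowest of these was the pseudogene Atp6v0c-ps2, at 0.0221 FPKM in Minimal Myc, 15.7 in Myc, 26.8 in MycN and 53.2 in vector, whose fragments may be shared with its parent gene. The summed epithelial markers, most of it Krt19, were 1.81 FPKM in Minimal Myc, 11.2 in Myc, 5.08 in MycN and 13.7 in vector.

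Of the 334 genes at least 2-fold above the highest of the other 3 libraries, 90 were in the interferon lists and 139 in any list. Several others, chosen here after their values were seen, belong to known defence functions. Of the genes named below, Ifi47, Ch25h and Il13ra2 passed the filter on low values only through Minimal Myc. Their place above the other 3 libraries is therefore in part set by the filter. With a filter that leaves Minimal Myc out, 249 genes held such a place, 74 of them in the interferon lists. Ifi47, another interferon-inducible GTPase, had 15.3 FPKM in Minimal Myc, 1.44 in Myc, 0.140 in MycN and 0.667 in vector. Ch25h, which makes the antiviral sterol 25-hydroxycholesterol, had 10.1 FPKM in Minimal Myc, 0.433 in Myc, 0.307 in MycN and 0.142 in vector. Apol9a, an apolipoprotein L family gene with a near-identical neighbour copy, had 177 FPKM in Minimal Myc, 16.4 in Myc, 18.1 in MycN and 23.4 in vector. Others have other roles. Ppbp, a chemokine of platelets, had 195 FPKM in Minimal Myc, 7.82 in Myc, 10.5 in MycN and 31.8 in vector, Il13ra2, a decoy receptor for interleukin 13, had 6.18 FPKM in Minimal Myc, 0.252 in Myc, 0.192 in MycN and 0.0556 in vector, and Cth, which makes cysteine from cystathionine, had 37.1 FPKM in Minimal Myc, 6.47 in Myc, 3.84 in MycN and 6.24 in vector.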

How the data were processed

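Strand-preserving libraries of polyadenylated RNA were sequenced from 4 cultures, 1 library each. Mouse build mm9, Cufflinks 2.2.0 and TopHat2 2.0.11 are named, with no order, per the submitters' processing notes. The authors deposited FPKM in 2 tables of 26608 rows, the second being the first multiplied by 1 factor per library (1.28 for Minimal Myc, 2.04 for Myc, 1.30 for MycN and 1 for vector). The 32 NanoString rows, for 30 genes, were set aside, and the added spike-in RNAs were not used here. No column lay outside these samples.

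Identical rows of a gene were merged and differing rows summed (189 genes), in the unscaled table. Genes averaging 1 FPKM or more were kept, and a pseudocount of 1 was added before taking log2. Counts use differences of at least 2-fold. Fragment depth was estimated from the spacing of FPKM values under 0.1 in transcripts of 1500 to 4000 bases, taking off 200 bases for the fragment. Estimated fragment numbers bear on counting error only. Members and gene lists were chosen with earlier results of these data known. From each of the 45 lists any measured member may be named, together with the 15 highest and 15 lowest genes above 0 in both libraries, leaving out small RNAs and symbols of the Gm, LOC and Rik kind. Promoters came from RefSeq on GRCm38.p6, so no coordinate was joined to the authors' build. Alternatives were 5 other scalings or centrings, 2 other pseudocounts, 2 other filters, another row choice, the removal of small RNA genes and genes listed at 0, and, added after seeing the data, a filter that leaves Minimal Myc out. Some list members counted here are not reported by name. The calculation was tested on simulated data. Python 3.11.15, pandas 2.3.3, NumPy 2.4.6 and matplotlib 3.10.9 were used.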

Additional observations from a re-analysis of the deposited data

Results flagged for a closer look

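The NanoString rows, which the comparisons above use only for B2m, gave 2 genes with a ratio of Minimal Myc to vector above 2. Npm1, a nucleolar chaperone of ribosome assembly, read 78556 in Minimal Myc against 37173 in vector, a ratio of 2.11, and its FPKM ratio was 3.44. Rpl10, a ribosomal protein of the large subunit, read 52642 in Minimal Myc against 24354 in vector, a ratio of 2.16, and its FPKM ratio was 3.01. Over the 30 NanoString genes the median ratio was 1.23, from 0.699 for E2f2 to 2.16 for Rpl10, and 25 lay above 1. The FPKM ratio was the larger of the pair for 28 of the 30. No label states how the NanoString values were normalized.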

How the results depend on the processing

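No paired analysis was possible because each group has 1 library, and no value has a replicate check. The 1642 genes at least 2-fold higher became 480 after centring on the median of all genes, 451 with upper quartile scaling, 522 with quantile normalization, 371 after centring on housekeeping genes, 856 with a pseudocount of 5 and 3988 in the authors' scaled table. The 301 genes at least 2-fold lower became 658, 650, 544 and 893 under the first 4 of these, 147 with a pseudocount of 5, 464 with a pseudocount of 0.1, 156 at a mean FPKM of 5 or more and 194 without small RNA genes and genes listed at 0. Counts over all genes therefore depend on the scaling. The interferon count of 121 stayed within 1.5 times under all 12 alternatives, from 92 after centring on housekeeping genes to 139 in the authors' scaled table. Among 39 list medians under 12 alternatives, 399 of 468 values moved by less than 1.5-fold. In 61 the sign changed, in 17 of them after centring on housekeeping genes and in 10 after centring on the median of all genes. For all but 1 of the 61 the reported median was under 2-fold. The exception is the median of the interferon gamma preferred genes, at -0.0049 with no filter on low values. A filter on the Myc, MycN and vector libraries alone, chosen after seeing the data, left 1534 genes higher, 301 lower and 105 of 144 interferon genes higher. Of 108 named genes at least 2-fold higher, 80 or more stayed so under every scaling or centring, and all 28 named lower genes did except in the authors' scaled table, where 25 did. The interferon ligand genes rest on few fragments, so depth limits their values.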
